A study of Mus musculus with 8 samples.

Results

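The genes described here are 9 enzymes of amino acid breakdown and methionine use in the liver: Hpd, Tdo2, Hal, Sds, Gls2, Bhmt, Agxt, Hgd and Mat1a. The rule names them by symbol and sets no threshold on their signal, but it was written with earlier results of these data known. They are 9 of 21887 protein-coding genes on the nuclear chromosomes. For each gene the ends of paired-end tags (PETs) were counted over its RefSeq span on GRCm38.p6 and 2.5 kb either side. These 9 windows cover 227 kb together and held 2254 PET ends.

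The data are an RNA polymerase II (Pol II) ChIA-PET of liver from wild type C57BL/6 mice aged 3 to 6 months, under 12 h of light and 12 h of dark with free access to food. In this assay chromatin is crosslinked and pulled down, here with the Pol II antibody 8WG16, and DNA ends held in one complex are ligated and sequenced as a PET. The labels name 8 libraries, 4 taken at ZT06 in the day and 4 at ZT18 in the night, where ZT counts hours from lights on, and each pools chromatin of 3 to 7 livers. Experiment 1 (JM08) has 2 libraries at each time, and experiments 2 (JM11) and 3 (JM12) have 1 at each. Crosslinking was by 1.5 mM EGS, a longer protein crosslinker, with 1% formaldehyde in experiments 1 and 3, and by 1% formaldehyde alone in experiment 2. The deposited rows carry an experiment and a linker code but no library or time point, so each value below is for 1 experiment, with day and night together, and day was not compared with night. No replicate spread exists within an experiment, and the 95% intervals cover counting error only.

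The liver takes up most of the amino acids arriving from the gut and breaks the surplus down to fuel, glucose and urea. Hpd and Hgd act in series on the way from tyrosine to fumarate and acetoacetate, Tdo2 opens the ring of tryptophan in the first step of the kynurenine route, and Hal removes ammonia from histidine. Sds turns serine into pyruvate, Gls2 releases ammonia from glutamine, and Agxt, a peroxisomal aminotransferase, detoxifies glyoxylate to glycine. Mat1a makes S-adenosylmethionine, the methyl donor of the cell, and Bhmt rebuilds methionine from homocysteine with betaine. Hal, Sds and Gls2 are known as genes of the hepatocytes around the portal vein.

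All 9 genes had more PET ends per kb than the nuclear mean in every experiment. Density is given below as ends per kb over the window divided by the nuclear mean of the same experiment. That mean was 0.349, 1.06 and 0.616 ends per kb in experiments 1, 2 and 3. The density is a level per length. Start and flanks make up a larger part of the window in a shorter gene, so gene length can alter it. The 9 genes had a median of 13.4 in experiment 1, 2.93 in experiment 2 and 4.32 in experiment 3, beside 1.22, 1.20 and 1.42 for all protein-coding genes. A density of at least 2 was reached by 9 of 9 genes in experiment 1, where 27.7% of protein-coding genes reached it, by 7 of 9 in experiment 2 (6.52% of protein-coding genes) and by 9 of 9 in experiment 3 (25.4%). In all 3 experiments together it was reached by 7 of 9 genes, against 5.32%, and Hal and Hgd were the exceptions through experiment 2. The 95% lower limit was above the nuclear mean in all 3 experiments for 9 of 9 genes, as it was for 13.7% of protein-coding genes. A density of 3 in all experiments was reached by 3 of 9 genes (1.69% of protein-coding genes). Leaving out experiment 1, 2 or 3, a density of 2 in the other experiments was reached by 7, 9 and 7 genes, against 5.54%, 19% and 5.64% of protein-coding genes. Without the PETs whose ends lie within 8 kb of each other, 4 of the 9 genes reached 2 in all 3 experiments, against 2.88% of protein-coding genes under the same filter, and with PETs between chromosomes only it was also 4, against 2.96%. In whole liver, fewer cells with Pol II on a gene and less Pol II per cell cannot be told apart.

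**Figure D1:**
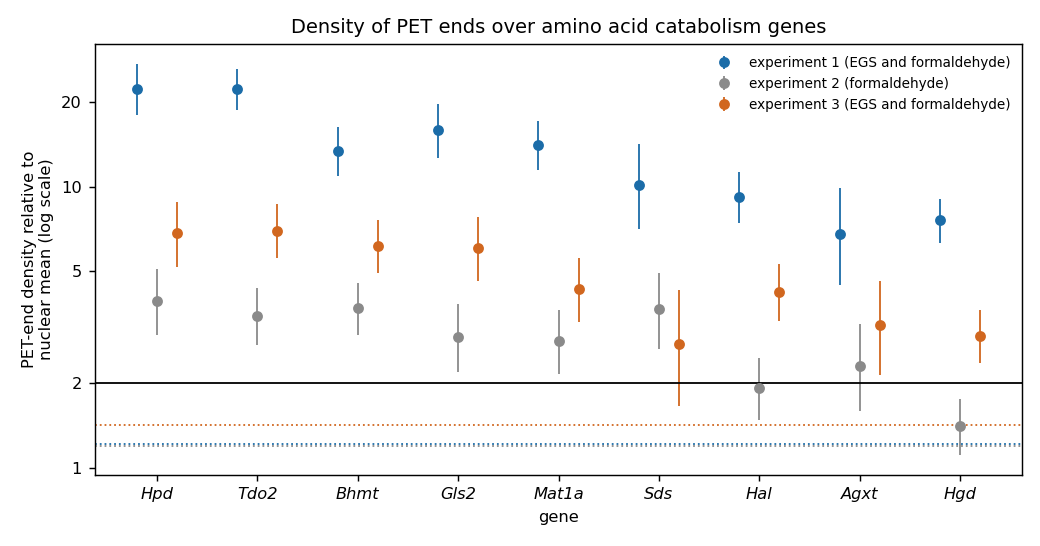
PET-end density of each gene relative to the nuclear mean (log axis) in the 3 experiments, with 95% counting intervals as bars. Dotted lines are the medians of all protein-coding genes and the solid line marks a density of 2. Every gene lies highest in experiment 1, and in experiment 2 Hal and Hgd lie below 2.

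The labelled tissue was checked against marker genes. Of 6 hepatocyte genes, 5 reached a density of 2 in all 3 experiments, and Alb, which encodes albumin, had 105, 9.26 and 15.8. The exception, Serpina1c, had 6.68, 0.504 and 1.62 and belongs to a family of near-identical copies. Of 3 Kupffer cell, 3 endothelial and 3 stellate cell markers, 0 reached 2 in all experiments, and among these 9 the highest value was 2.68 for Cd5l in experiment 1. Of 3 cholangiocyte markers, Sox9 did, with 5.71, 2.15 and 4.77, while Krt19 had 1.98, 1.31 and 1.77 and Epcam 1.14, 1.36 and 1.13. Of 3 neural genes, 0 did.

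In the route from phenylalanine and tyrosine, Hpd (chr5:123171807-123182723, minus strand) had 124, 66 and 67 ends in experiments 1, 2 and 3. Its relative densities were 22.3 (17.97 to 27.5), 3.92 (2.97 to 5.08) and 6.84 (5.19 to 8.84), at percentiles 99.4, 99.2 and 99.0 of protein-coding genes. Hgd (chr16:37579742-37632026, plus strand), which acts after Hpd, had 152, 85 and 104 ends, but over a span of 52.3 kb. Its relative densities were 7.61 (6.33 to 9.08), 1.40 (1.11 to 1.75) and 2.95 (2.37 to 3.63), at percentiles 95.5, 71.9 and 89.9. Per length, Hpd thus lay above Hgd in each experiment without overlap of the intervals. Hpdl, a gene related to Hpd, had 1.30, 1.15 and 1.48 on 3, 8 and 6 ends.

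Tdo2 (chr3:81958412-81975728, minus strand) had 173, 82 and 96 ends, the most of the 9 genes in experiment 1. Relative densities were 22.2 (18.8 to 26.2), 3.48 (2.73 to 4.36) and 6.99 (5.56 to 8.67), with percentiles of 99.4, 98.9 and 99.1. Ido1 and Ido2 encode the other enzymes that open the tryptophan ring. Ido1 had 0.805, 1.38 and 1.18 on 5, 26 and 13 ends, and Ido2 had 2.09, 1.28 and 2.39 on 36, 67 and 73 ends. The interval of Tdo2 lay above those of both relatives in each experiment. Its lower neighbour Ctso, a cathepsin gene 1.69 kb away, covers 3.65% of the Tdo2 window.

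Hal (chr10:93488768-93516761, plus strand) had 106, 67 and 86 ends. Relative densities were 9.22 (7.42 to 11.3), 1.92 (1.48 to 2.46) and 4.23 (3.33 to 5.31), with percentiles of 96.7, 92.5 and 96.1. The next gene, Amdhd1, lies 6.58 kb away and encodes a later enzyme of the same histidine route. Amdhd1 had 8.17 (6.04 to 10.8), 1.69 (1.20 to 2.33) and 3.13 (2.24 to 4.27), so the intervals of these neighbours overlapped in each experiment. On the other side of Hal, Lta4h had 1.89, 1.45 and 2.22.

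Sds (chr5:120476547-120483932) had 44, 48 and 21 ends over a span of 7.39 kb. Relative densities were 10.2 (7.10 to 14.2), 3.67 (2.65 to 4.94) and 2.75 (1.66 to 4.30). It ranked 6 of 9 in experiment 1, 3 of 9 in experiment 2 and 9 of 9 in experiment 3, and was the one gene of the 9 whose value in experiment 3 was below that in experiment 2, with overlapping intervals. Sdsl, the similar enzyme gene 3.72 kb away, had 1.46 (0.668 to 2.77), 0.867 (0.496 to 1.41) and 0.993 (0.496 to 1.78). Sds was 6.97, 4.23 and 2.77 times as dense, and the intervals of the pair overlapped in experiment 3. Plbd2 overlaps Sds by 40 bp and covers 20.5% of the Sds window.

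Agxt (chr1:93135240-93145421, plus strand) had 36, 37 and 30 ends, the fewest of the 9 genes in experiments 1 and 2. Relative densities were 6.80 (4.48 to 9.90), 2.31 (1.59 to 3.24) and 3.21 (2.13 to 4.64). The percentiles were 94.5, 96.1 and 91.8, so Agxt stood about as high among protein-coding genes in experiment 2 as in experiment 1. Agxt2, a mitochondrial aminotransferase of glyoxylate, had 1.32 (0.844 to 1.96), 1.15 (0.891 to 1.47) and 1.09 (0.771 to 1.496), and its intervals did not overlap those of Agxt in any experiment.

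In methionine metabolism, Mat1a (chr14:41105012-41124428) had 120, 73 and 65 ends and Bhmt (chr13:93616891-93637758, minus strand) had 121, 101 and 98. The relative densities of Mat1a were 14.1 (11.4 to 17.2), 2.83 (2.15 to 3.65) and 4.32 (3.29 to 5.58). Mat2a, the gene of the same enzyme activity known for its wide expression outside the liver, had 18.05 (13.7 to 23.3), 2.82 (1.93 to 3.97) and 3.31 (2.05 to 5.07). The ratio of Mat1a to Mat2a was 0.781, 1.00 and 1.30, with overlapping intervals throughout, and this was the one pair of relatives examined in which the described gene was not the denser in each experiment. For Bhmt the relative densities were 13.4 (10.9 to 16.4), 3.69 (2.97 to 4.55) and 6.15 (4.92 to 7.60). Bhmt2, a similar copy 18.3 kb away, had 5.07 (3.57 to 6.99), 1.67 (1.16 to 2.32) and 2.66 (1.85 to 3.70), below Bhmt without overlap each time. For reads that match both copies, the treatment is not stated in the sources used here.

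Gls2 (chr10:128194635-128210004) had 113, 63 and 76 ends. Relative densities were 15.9 (12.7 to 19.7), 2.93 (2.19 to 3.84) and 6.06 (4.64 to 7.78). Spryd4 overlaps the higher end of Gls2 by 97 bp, fills 9.26% of its window and had 20.4, 2.88 and 8.73. With the parts over Spryd4 left out, Gls2 had 12.3 in experiment 1 and 4.39 in experiment 3.

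Neighbouring genes were mostly less dense. Among the 18 pairs of a described gene with the nearest protein-coding gene on either side, the described gene was denser in 17 in each experiment, with a median ratio of 4.66, 1.97 and 2.15. The same count was not made for other genes of similar density, so it does not show that these surroundings are unusual. Both genes of a pair were counted with 2.5 kb either side, so close pairs share part of their windows. An end in the shared part counts for both genes. This holds for Hpd with Setd1b, Tdo2 with Ctso, Hal with Lta4h, Sds with Sdsl and Plbd2, and Gls2 with Spryd4. The exceptions were Gls2 against Spryd4 in experiments 1 and 3 (0.780 and 0.694) and Hgd against Ndufb4 in experiment 2 (0.794). Next to Hpd, Setd1b had 9.63, 1.497 and 4.01 at a gap of 3.18 kb, while Psmd9 had 0.958, 0.737 and 1.69 at 45.5 kb.

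The order of the genes was partly the same between experiments. Hpd and Tdo2 held the first places in experiments 1 and 3, and Hpd and Bhmt in experiment 2. In each experiment every gene overlapped in its interval with the next in the order, but of 36 pairs of genes 20 did not overlap in experiment 1, 10 in experiment 2 and 12 in experiment 3. Hpd and Tdo2 each lay clear above 6 of the 8 others in experiment 1. Hgd lay clear below 5, 6 and 4 of the 8 others in experiments 1, 2 and 3. Over the 9 genes, Spearman's rho of experiment 1 with experiment 2 was 0.700, with experiment 3 it was 0.817, and experiments 2 and 3 had 0.550, as a description of genes measured in the same pools.

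Levels were highest in experiment 1 for each of the 9 genes. The ratio of experiment 1 to experiment 2 had a median of 4.99 over the 9 genes, from 2.78 for Sds to 6.40 for Tdo2, beside 1.16 for all protein-coding genes. For experiment 3 to experiment 2 the median was 1.74, from 0.751 for Sds to 2.20 for Hal, beside 1.25. The rise was not particular to the 9 genes. For the 6 hepatocyte markers these 2 medians were 10.0 and 1.85. For the 63 other breakdown genes described below they were 3.23 and 1.64. The smallest two-sided p that an exact permutation of 2 dual-crosslinked pools and 1 pool with formaldehyde alone can reach is 0.333, and crosslinking and experiment cannot be told apart.

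Pol II signal was not spread evenly along the genes. The RefSeq promoter set used here held 6 of the 9 genes and gave their strand. For these a window from 0.5 kb before to 1 kb after the start was set against the gene body. Intervals of windows along a gene, here and below, rest on ends and not on PETs. They are too narrow where both ends of a PET fall in one window. In experiments 1, 2 and 3 the start window had a median relative density of 44.0, 8.20 and 14.1, against 9.62, 2.63 and 4.67 in the body. For 13412 protein-coding genes of at least 5 kb the medians were 3.82, 1.89 and 3.25 at the start and 1.03, 1.12 and 1.29 in the body. The start lay above the body without overlap of intervals in 5 of 6 genes in experiment 1, in 4 in experiment 2 and in 3 in experiment 3, as it did in 33.1%, 21.2% and 29.7% of the 13412 protein-coding genes. Intervals separate more easily where ends are many, and protein-coding genes had fewer per kb by median. These shares, here and after the 3′ end below, were not matched for the number of ends. The ratio of start to body had a median of 4.79, 3.30 and 2.62 in the 6 genes and of 3.26, 1.71 and 2.59 in protein-coding genes, so in experiment 3 these medians were close. Hpd, Tdo2 and Bhmt had a start above the body without overlap in each experiment.

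Tdo2, Bhmt and Hpd were chosen because their starts held the densest signal. Hal was chosen for the only exact match to TATAAA near the start among those printed, on the opposite strand. For these 4 genes the upstream 250 bases are shown. They are RefSeq sequences on GRCm38.p6, written 5′ to 3′ on the strand of the gene and ending at the base before the annotated start, with each match to a searched motif in capitals.
Tdo2, chr3:81975729-81975978, minus strand: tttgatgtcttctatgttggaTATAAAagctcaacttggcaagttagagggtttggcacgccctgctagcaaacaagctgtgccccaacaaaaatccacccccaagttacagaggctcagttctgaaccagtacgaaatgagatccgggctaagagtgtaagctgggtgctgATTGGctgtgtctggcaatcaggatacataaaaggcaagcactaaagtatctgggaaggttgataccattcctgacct
Bhmt, chr13:93637759-93638008, minus strand: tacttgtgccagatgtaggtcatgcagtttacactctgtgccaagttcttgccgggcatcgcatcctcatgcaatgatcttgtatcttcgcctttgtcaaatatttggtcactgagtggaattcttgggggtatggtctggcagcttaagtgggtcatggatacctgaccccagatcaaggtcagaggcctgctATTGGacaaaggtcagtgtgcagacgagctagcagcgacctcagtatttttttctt
Hpd, chr5:123182724-123182973, minus strand: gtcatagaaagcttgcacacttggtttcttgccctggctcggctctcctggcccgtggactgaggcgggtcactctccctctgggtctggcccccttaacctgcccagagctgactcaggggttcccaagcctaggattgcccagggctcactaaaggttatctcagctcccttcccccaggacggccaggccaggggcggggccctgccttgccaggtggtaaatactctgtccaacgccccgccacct
Hal, chr10:93488518-93488767, plus strand: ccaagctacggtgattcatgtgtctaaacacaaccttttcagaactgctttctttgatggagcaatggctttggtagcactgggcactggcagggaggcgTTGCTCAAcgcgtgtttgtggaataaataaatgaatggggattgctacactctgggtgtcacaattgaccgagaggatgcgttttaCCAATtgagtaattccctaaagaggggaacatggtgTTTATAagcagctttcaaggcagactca

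The 8 motifs searched on both strands of these 250 bases were the TATA-box core TATAAA, the CCAAT box, the HNF1 half-site GTTAAT, the forkhead motif TGTTTAC, the HNF4 motif CAAAGTCCA, the C/EBP motif TTGCNNAA, the glucocorticoid receptor half-site TGTTCT and the E-box CACGTG, none of which overlapped in these promoters. Of the 6 promoters, CCAAT was in 4 (Bhmt, Hal, Hgd and Tdo2), against 33.8% of the 32851 promoters in the table, and TATAAA in 3 (Hal, Hgd and Tdo2), against 12.4%. In Hal the TATAAA match lay on the opposite strand, 28 to 23 bases before the start. In Tdo2 it lay 229 to 224 bases before the start. TTGCNNAA was in Hal and Hgd (9.56% of all promoters) and TGTTCT in Agxt (16.1%), and the remaining 4 motifs had no match in these windows. GC content was 62.8% for Hpd, which had no match, 46.4% for Tdo2, 48.0% for Bhmt and 45.6% for Hal.

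The ends in these start windows did not lie in the printed bases alone. For Bhmt the 250 bases held 3, 1 and 0 ends, while the first 500 bases of the gene held 17, 12 and 13. For Tdo2 the printed bases held 4, 4 and 5 and the first 500 bases 25, 6 and 7, so per base the printed stretch was the sparser in experiment 1 only. Hpd had 5, 2 and 5 in the printed bases and 9, 5 and 4 in the first 500, and Hal had 0, 2 and 0 and then 10, 2 and 5.

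Tdo2 had the highest start window in experiment 1, with 41 ends and a relative density of 78.4 (56.3 to 106), and then 14 ends at 8.83 (4.83 to 14.8) and 17 ends at 18.4 (10.7 to 29.5). Bhmt had the highest in experiments 2 and 3, at 15.8 (10.2 to 23.3) and 27.1 (17.5 to 40.0), after 65.0 (45.0 to 90.9) in experiment 1. Hpd had 44.0, 14.5 and 19.5. Hal had 44.0 in experiment 1, above a body of 6.51, and 3.78 and 9.75 in the others, where the intervals overlapped the body.

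Agxt differed between the experiments in its start window. It held 18 ends in experiment 1 and 12 in experiment 2, at 34.4 (20.4 to 54.4) and 7.57 (3.91 to 13.2). In experiment 3 it held 3 ends, at 3.25 (0.670 to 9.49), close to its body at 3.18. Hgd had the lowest start windows in experiments 1 and 3, with 7, 6 and 0 ends. The 0 of experiment 3 allows a relative density of up to 3.25, taken as 3 ends, which is also the median of protein-coding genes, and its two-sided 95% limit is 3.99. RefSeq places the promoter start of Hgd at 37580153, inside the gene span, and a window around that start held 9, 8 and 3 ends, a relative density of 17.2, 5.05 and 3.25. The counts and medians of start windows above took the start of Hgd from its gene span. They were not recalculated with the promoter start and may differ with it.

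**Figure D2:**
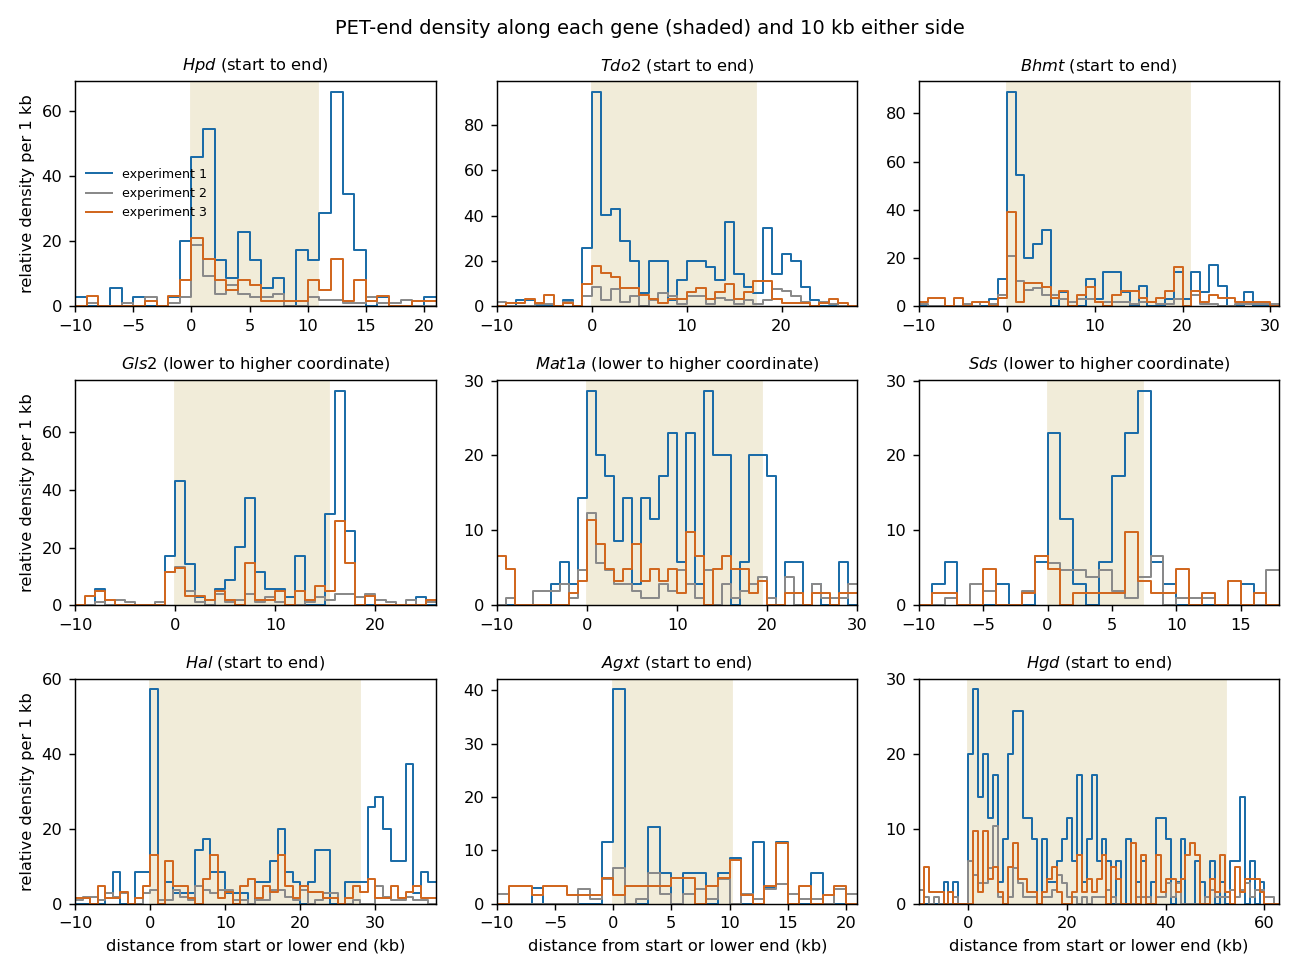
Relative density of PET ends in 1 kb bins along each gene (shaded) and 10 kb either side, one line per experiment. Hpd, Tdo2, Bhmt, Hal, Agxt and Hgd run from start to end, and Gls2, Mat1a and Sds run by coordinate. The first kb of Tdo2 reaches 94.7 and that of Bhmt 88.9 in experiment 1, and Hpd has a further peak past its end.

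Signal also lay past the 3′ ends. Over the 2.5 kb after the end, the median of the 6 genes was 16.1, 1.51 and 4.87 in experiments 1, 2 and 3, beside 1.15, 1.14 and 1.30 for protein-coding genes. In experiment 1 Hpd had 46 ends there, at 52.8 (38.6 to 70.4), above its body at 16.4 (12.2 to 21.6), and its densest kb was the one from 12 to 13 kb after the start of a gene of 10.9 kb. In experiment 2 the same stretch of Hpd held 4 ends, at 1.51 (0.412 to 3.88), and in experiment 3 it held 14, at 9.10 (4.97 to 15.3). Hal had 21.8 (13.1 to 34.0) after its end in experiment 1, also above its body, and 1.51 and 4.55 in experiments 2 and 3. These were 2 of the 6 genes in experiment 1, and 0 of 6 in experiments 2 and 3, beside 5.42%, 2.41% and 3.77% of protein-coding genes. For the other 4 genes the interval after the end did not lie above the body in any experiment. Setd1b lies beyond this stretch of Hpd and Amdhd1 beyond that of Hal, and the part of reads from either neighbour was not tested.

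**Figure D3:**
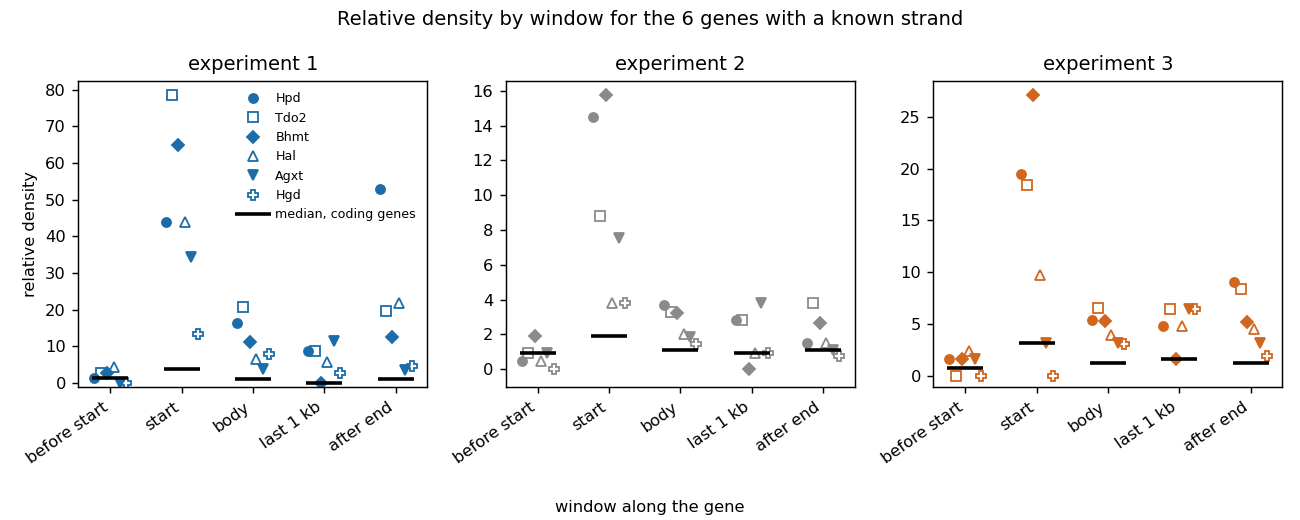
Relative density in 5 windows along the 6 genes with a strand in the table (2.5 to 0.5 kb before the start, 0.5 kb before to 1 kb after it, body, last 1 kb, 2.5 kb after the end), with a panel per experiment and black bars for the median of protein-coding genes. The highest start window is that of Tdo2 in experiment 1 and of Bhmt in experiments 2 and 3, and the window after the end of Hpd reaches 52.8 in experiment 1.

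For Gls2, Mat1a and Sds the ends of the gene were taken by coordinate, within 1 kb either side. Gls2 had 30.1 (18.6 to 46.0) at its lower end and 28.7 (17.5 to 44.3) at its higher end in experiment 1. In experiment 2 these were 12.3 (8.03 to 18.02) and 1.89 (0.515 to 4.84), which did not overlap, and in experiment 3 they were 12.2 and 7.31. The densest kb of Gls2 in experiments 1 and 3 was 16 to 17 kb from its lower end, outside its span of 15.4 kb and over Spryd4, and in experiment 2 it was the first kb. Mat1a had 8.51 (5.05 to 13.5) at its lower end in experiment 2, against 2.498 (1.83 to 3.33) in its middle, while in experiment 1 it had 21.5 at the lower end, 13.8 in the middle and 22.9 at the higher end, all overlapping. Sds had 14.3 at its lower and 27.3 at its higher end in experiment 1, 6.15 and 4.26 in experiment 2, and 5.68 and 4.06 in experiment 3, with overlap each time.

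Each PET joins 2 ends, and most PETs of these genes led to another chromosome. This share was 70.8% (67.5 to 74.0%, exact Clopper-Pearson) of 789 PETs in experiment 1, 80.8% (77.2 to 84.0%) of 547 in experiment 2 and 79.1% (75.5 to 82.4%) of 556 in experiment 3. Of all nuclear PETs it was 73.1%, 88.7% and 80.2%. The share of these genes was below the general one in experiment 2, and its interval included the general one in experiments 1 and 3. These shares are not on equal terms. A PET between chromosomes can reach a window with either end, while both ends of a short PET often fall in one window. Each PET counts once, which raises the share between chromosomes and lowers that within 8 kb for PETs of a window. The PETs with ends at most 8 kb apart made up 25.9% (22.8 to 29.1%), 14.1% (11.3 to 17.3%) and 15.3% (12.4 to 18.6%), beside 22.5%, 6.23% and 14.8% of all nuclear PETs. The share of all PETs lay below the interval in experiments 1 and 2 and inside it in experiment 3. Because each PET counts once, experiment 3 does not show that an excess was absent. With PETs within 8 kb left out, all 27 relative densities of single genes were lower. Over the 9 genes and all experiments, the share of PETs within 8 kb ran from 13.1% for Hal to 28.6% for Gls2.

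Contacts on the same chromosome over more than 8 kb were few. There were 26, 28 and 31 such PETs in experiments 1, 2 and 3, of which 20, 28 and 23 spanned more than 1 Mb. The remaining 14, of 8 kb to 1 Mb, came from 6 of the 9 genes, with 6 in experiment 1, 0 in experiment 2 and 8 in experiment 3. At least 1 such PET was found for 24.5% of protein-coding genes. That share was not matched for the number of ends, and a gene with more ends has more chances of such a PET. Per 1000 PET ends the rate of PETs of 8 kb to 1 Mb was 6.07 (2.23 to 13.2) in experiment 1, beside 2.91 for all protein-coding genes. In experiment 3 it was 12.4 (5.37 to 24.5) beside 4.72. In experiment 2 it was 0 of 622 ends, which allows up to 4.82 per 1000, taken as 3 PETs, with a two-sided 95% limit of 5.93, beside 1.12. Of the 8 PETs of experiment 3, 1 each of Bhmt, Gls2 and Hgd had both ends in the window of its own gene. The 6 of experiment 1 include 2 near-duplicates of Bhmt, so these rates rest on few separate PETs. The interval lay above the level of protein-coding genes in experiment 3 and included it in experiment 1, and the 0 of experiment 2 was too small a sample to show a difference from it. Tdo2, Sds and Agxt had none in any experiment, on 351, 113 and 103 ends.

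Bhmt and Gls2 had 4 contacts each. For Bhmt, 2 PETs of experiment 1 joined position 93637709 on chromosome 13, 49 bases inside the annotated start and next to the promoter printed above, to 93649168 and 93649170, between Bhmt and Bhmt2. They share the read-1 position and the linker code and their far ends are 2 bp apart, so they count as 1 when near-duplicates are collapsed. A further PET of experiment 1 ran 51.4 kb from a point 568 bases before the start of Bhmt into Dmgdh, which encodes the enzyme that uses the dimethylglycine made by Bhmt. The PET of experiment 3 had both ends in the Bhmt window, 18.4 kb apart.

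For Gls2, 3 of the 4 contacts were in experiment 3. A PET of 67.9 kb led from 128201689 in Gls2 to 128269593 in Apof, an apolipoprotein gene whose relative densities were 19.0, 5.76 and 7.74. A PET of 49.7 kb led to 128253887, 244 bp from Apon. A PET of 16.7 kb joined a point 188 bases outside the lower end of Gls2 to Spryd4, with both ends inside the Gls2 window. In experiment 1, a PET of 999.4 kb led from Gls2 to Pip4k2c.

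The other 6 contacts were single PETs. Mat1a was joined at 41105290, 278 bases inside its lower end, to Mbl1, a mannose-binding lectin gene of the liver, at 55.2 kb in experiment 1, and to Dydc1 at 27.3 kb in experiment 3. A PET end at 93517911, past the 3′ end of Hal and in the flank towards Amdhd1, was joined in experiment 1 to Ccdc38 at 25.5 kb. Hpd was joined in experiment 3 to a point 13.7 kb away, 8967 bp outside Hpd and in no protein-coding gene. Hgd had a PET of 8.08 kb within itself and another of 198 kb to Fstl1, both in experiment 3. Apart from the near-duplicates of Bhmt, no 2 of these PETs joined the same places.

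**Figure D4:**
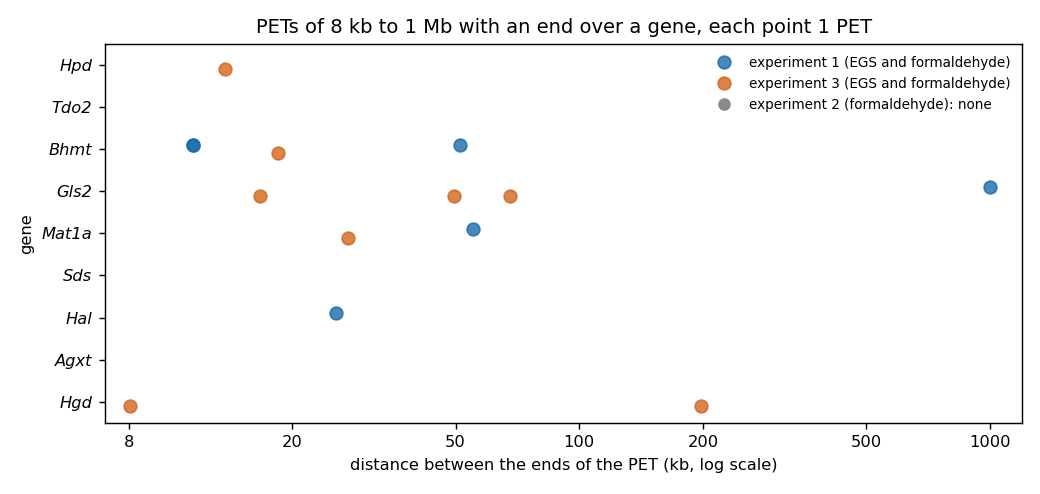
Distance between the ends (kb, log axis) of each PET of 8 kb to 1 Mb with an end over one of the 9 genes, coloured by experiment. Of 14 PETs, 12 span at most 100 kb, and the 2 of Bhmt near 11.5 kb lie on one another.

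Of the 11 far ends that left the window of their own gene at 8 kb to 1 Mb, 8 fell in the window of another protein-coding gene, 72.7% (39.0 to 94.0%). Beyond 1 Mb it was 33 of 71, 46.5% (34.5 to 58.7%). All nuclear PET ends had 51.4%, inside both intervals, so no preference for genes at the far end was detectable at this depth. Of all PETs, 1 joined windows of different genes of the 9, Tdo2 with Hpd on different chromosomes in experiment 2.

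The other genes of these routes were then described from a list of 63 breakdown genes. Of these, 14 (22.2%) reached a density of 2 in all 3 experiments, beside 5.32% of protein-coding genes. Their medians were 5.03, 1.43 and 2.66 in experiments 1, 2 and 3. By experiment 43, 14 and 41 of the 63 reached 2. The highest by geometric mean over the experiments were Tat, Gnmt and Gpt, with spans of 13.7, 3.55 and 2.95 kb. Tat, the transaminase that starts tyrosine breakdown and feeds Hpd, had 76.1, 13.0 and 15.5. Gnmt, which uses the S-adenosylmethionine made by Mat1a to methylate glycine, had 52.4, 9.30 and 15.2, and Gpt, alanine transaminase, had 22.0, 5.59 and 12.1. These lay above each of the 9 genes in experiments 2 and 3, while in experiment 1 Gpt was below Hpd and Tdo2.

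By route, the phenylalanine and tyrosine genes had medians of 8.63, 1.57 and 3.88 over 6 genes, with 6, 2 and 6 reaching 2. Fah, the last enzyme of the route after Hgd, had 12.6, 1.43 and 4.98. In the histidine route, Ftcd, which transfers the formimino group to folate, had 15.9, 2.88 and 4.62 and Uroc1, the enzyme after Hal, had 3.24, 1.46 and 2.86. In the tryptophan route Haao had 16.5, 2.51 and 5.60, and Aadat had 1.60, 0.949 and 1.34, so genes of one route lay far apart. The methionine and homocysteine genes had medians of 6.05, 1.87 and 2.99 over 8 genes.

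The branched chain genes were lowest of the routes by median in each experiment, with 1.54, 1.20 and 1.45 over 12 genes, close to the medians of all protein-coding genes. Of these, Bcat2 alone reached 2 in all experiments, with 12.1, 2.09 and 5.17. The 3 lowest of the 63 were Tdh, a threonine dehydrogenase, with 0.132, 1.17 and 0.896 on 1, 27 and 12 ends, and Pcca (0.999, 1.00 and 1.05) and Bckdhb (0.829, 1.11 and 1.24), which encode subunits of the propionyl-CoA carboxylase and the branched chain ketoacid dehydrogenase. Tdh, Pcca and Bckdhb span 16.7, 406 and 199 kb. The part of gene length in the order of genes and routes was not tested. Glul, glutamine synthetase of the hepatocytes around the central vein, which makes the glutamine that Gls2 splits near the portal vein, had 5.24, 2.37 and 4.61.

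**Figure D5:**
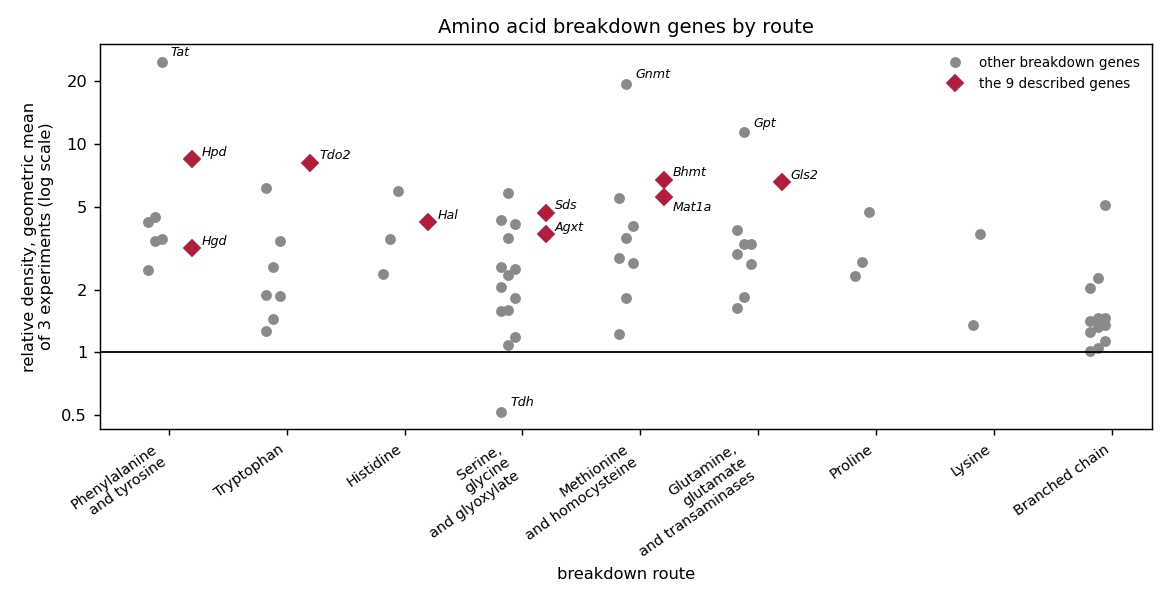
Relative density (geometric mean of 3 experiments, log axis) of the 9 genes (red diamonds) and 63 other amino acid breakdown genes (grey) by route. Tat, Gnmt and Gpt lie above the 9 genes, and most branched chain genes lie near the nuclear mean of 1.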

How the data were processed

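PETs of 8 ChIA-PET libraries were deposited by the authors as 1 table whose other numeric values are chromosome positions in bp of both ends and a distance. Per the submitters' processing notes, reads were aligned with Bowtie2 to mm10. How PETs were filtered or duplicates handled is not stated in the sources used here. The design named a count model for ZT18 against ZT06, which was not run because rows name no library. Experiments held 474478, 1438866 and 840210 PETs. PETs with a mitochondrial end (12, 14 and 2239) were left out.

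Ends were counted over RefSeq gene spans (GRCm38.p6) with Python 3.11.15, numpy 2.4.6, pandas 2.3.3 and scipy 1.17.1. The nuclear mean was all nuclear ends over 2722202177 bp, the sum of the last position seen on each chromosome. Intervals of gene densities are exact Poisson intervals on the number of PETs touching the window, scaled to the density, because both ends of a short PET can fall in it. Windows along a gene used ends, so their intervals are too narrow where both ends of a PET fall in one window. The counting was tested on simulated data. A called gene is one at a density of at least 2. With 1 pool per experiment no p-value was computed. The members and lists were chosen with earlier results of these data known. All 9 genes were named in each comparison, with their listed relatives (not all are reported here) and neighbours, far-end genes, the 3 highest and 3 lowest of the breakdown list, and the 3 genes most like the medians; Fah, Ftcd, Uroc1, Haao, Aadat, Bcat2, Glul and the motifs were chosen after values were seen.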

Additional observations from a re-analysis of the deposited data

How the results depend on the processing

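No paired analysis was possible because the deposited rows name no library and so carry no replicate number. Of 216 alternative values of single genes, 194 stayed within the counting interval of the value reported, 22 moved and 0 reversed. The moves were not even between settings. With PETs within 8 kb left out 9 of 27 values moved and all 27 were lower. With PETs between chromosomes only 9 of 27 moved and 26 were lower. No other setting moved more than 2 of 27. With PETs within 8 kb left out, the genes at a density of at least 2 in all 3 experiments fell from 7 to 4 (2.88% of protein-coding genes), and the medians of experiments 1 and 2 were 9.64 and 1.98. With PETs between chromosomes only, these were 4 (2.96%), 9.44 and 1.99. A threshold of 3 left 3 genes (1.69% of protein-coding genes). Leaving out each experiment in turn gave 7 to 9 genes. Contacts of 8 kb to 1 Mb numbered 8 with a minimum of 20 kb, and 6 to 14 when each experiment was left out in turn (8 without experiment 1, 6 without experiment 3), an alternative chosen after seeing the data, as were contact rates by experiment and the promoter table's start of Hgd. The cause of these moves was not tested. Depth limits the start windows (0 to 41 ends) and the contacts.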

Other observations

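Among 2469 protein-coding genes outside the 9 with at least 50 ends in each experiment, those closest to the medians of the 9 genes over the 3 experiments were Slc25a25, a mitochondrial carrier, Hsp90b1, a chaperone of the endoplasmic reticulum, and Phyh, a peroxisomal hydroxylase of phytanic acid. Their distances on the log2 scale were 0.10, 0.19 and 0.20. Slc25a25 had relative densities of 12.9, 2.82 and 4.14, Hsp90b1 13.3, 2.70 and 4.81, and Phyh 12.1, 3.17 and 4.46.

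Each experiment holds rows with 2 linker codes, and the sources used here do not state which library or time each marks. In experiment 2 the median of the 9 genes was 4.67 in rows with the code ATGT on read 1 and 2.51 in rows with TAAG. In experiment 1 these were 12.7 and 13.9, and in experiment 3 they were 3.93 and 4.82. The medians of all protein-coding genes for ATGT and TAAG were 1.19 and 1.20 in experiment 1. They were 1.20 and 1.17 in experiment 2, and 1.39 and 1.39 in experiment 3. Of 27 comparisons of a gene between the codes of an experiment, 24 had overlapping intervals, and the 3 that did not were Hpd, Gls2 and Hgd in experiment 2. The share of all protein-coding genes without overlap between the codes was not counted, so whether 3 of 27 is unusual is not known. In the same experiment 10.9% of ATGT rows and 4.84% of TAAG rows had ends within 8 kb, and the part of this in the difference was not tested.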
